A study of Homo sapiens with 12 samples.

Results

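The genes of the mTORC1 complex and of its nutrient-sensing regulators were taken by name from a gene count table of 786-O cells, a clear cell renal cell carcinoma line. All 36 listed genes were found among the 58735 genes of the table. They lie on 16 chromosomes, and their merged exons span 1073 to 19626 bases. The study measured polyadenylated RNA in 4 groups of 3 libraries: xenografts of 786-O cells carrying BBOX1, xenografts carrying the empty vector, cultured cells carrying BBOX1, and cultured cells carrying the empty vector. BBOX1 encodes gamma-butyrobetaine hydroxylase, the last enzyme of carnitine synthesis, and was put back into the line with a lentiviral vector followed by drug selection. Cultured cells grew in DMEM with fetal bovine serum, and the tumours grew in NOD SCID gamma mice of 6 to 8 weeks on a regular diet. These mice lack T, B and natural killer cells, and BBOX1 came from a vector rather than from its own locus, in a single cell line. The labels do not say whether replicates of a group came from separate cultures or separate mice, and the p-values then reflect nothing beyond the library-to-library spread, which may be technical.

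mTORC1 is a protein kinase complex at the surface of the lysosome that couples amino acids, growth factors and energy to protein synthesis and growth. Amino acids act through sensor proteins, GATOR1 and the folliculin complex on the Rag GTPases, which the Ragulator complex anchors to the lysosome and which recruit mTORC1 there. Growth factors act through the TSC complex on RHEB, the GTPase that switches on the recruited kinase. In clear cell renal cell carcinoma the pathway is often active and is a target of approved drugs. Its activity is set mainly by protein binding and phosphorylation, which transcript counts do not measure.

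The transcription factors TFEB, TFE3 and MITF bind the E-box core CACGTG in promoters of lysosomal and Rag genes, and ATF4 binds elements of the form TGATGNAA in amino acid response genes. Promoters of 29 of the 36 genes were matched in RefSeq (GRCh38.p14), each as 300 bases, from 250 before to 50 after the first listed start. CACGTG, which reads the same on both strands, was found in 7 of the 29, against 7.26% of all 35116 promoters of that length. TGATGNAA on either strand was found in 1 of the 29, against 3.62% of all. Each member was taken with 1 promoter, and the set of all promoters was not matched to the members for gene type or GC content. The differences from that set were not tested. The 7 genes with CACGTG were RRAGB, RRAGC, LAMTOR1, LAMTOR4, NPRL3, TSC2 and FNIP1. In xenografts with the empty vector, 5 of these 7 were higher and 2 lower than in cells with the empty vector, although LAMTOR1 turned to lower under a correction for gene length and GC content. With BBOX1, 3 were higher and 1 lower in xenografts. Over all genes tested, 35.5% were higher and 33.1% lower with the empty vector, and 36.1% and 32.1% with BBOX1. The bases before the start are shown for 5 of them, because these 5 moved in both directions in empty-vector xenografts while sharing the same letters. Capitals mark CACGTG and, in TSC2 alone, the overlapping TGATGCAA.

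RRAGB, chrX:55717499-55717748, plus strand: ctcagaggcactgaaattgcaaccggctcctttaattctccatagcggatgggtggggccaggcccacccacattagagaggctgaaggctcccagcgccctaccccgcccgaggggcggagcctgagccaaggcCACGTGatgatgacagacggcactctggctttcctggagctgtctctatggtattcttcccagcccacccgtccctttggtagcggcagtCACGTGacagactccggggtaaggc

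RRAGC, chr1:38859773-38860022, minus strand: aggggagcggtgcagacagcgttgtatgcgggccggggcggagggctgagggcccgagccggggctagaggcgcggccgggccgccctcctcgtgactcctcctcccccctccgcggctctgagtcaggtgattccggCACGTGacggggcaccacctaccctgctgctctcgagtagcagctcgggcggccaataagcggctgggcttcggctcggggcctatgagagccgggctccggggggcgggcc

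LAMTOR4, chr7:100148668-100148917, plus strand: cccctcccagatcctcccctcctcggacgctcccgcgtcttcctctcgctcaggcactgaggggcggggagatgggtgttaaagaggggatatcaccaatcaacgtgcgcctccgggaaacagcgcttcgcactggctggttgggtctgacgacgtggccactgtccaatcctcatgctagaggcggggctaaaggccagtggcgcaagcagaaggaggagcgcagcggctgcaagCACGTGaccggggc

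TSC2, chr16:2047735-2047984, plus strand: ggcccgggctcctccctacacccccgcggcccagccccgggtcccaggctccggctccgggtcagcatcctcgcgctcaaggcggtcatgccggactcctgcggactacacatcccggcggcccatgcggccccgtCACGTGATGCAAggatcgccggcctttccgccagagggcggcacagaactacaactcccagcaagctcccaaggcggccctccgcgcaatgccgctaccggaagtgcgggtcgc

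FNIP1, chr5:131797018-131797267, minus strand: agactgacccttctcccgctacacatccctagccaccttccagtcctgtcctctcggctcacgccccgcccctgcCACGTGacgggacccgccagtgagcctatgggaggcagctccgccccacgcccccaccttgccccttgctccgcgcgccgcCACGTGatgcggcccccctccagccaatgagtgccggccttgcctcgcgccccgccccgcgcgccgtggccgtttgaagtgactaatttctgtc

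CACGTG began 115 and 25 bases before the start of RRAGB, and a further match began at position 8 after the start, outside the bases shown. It began 112 bases before the start of RRAGC, 14 before that of LAMTOR4 and 114 before that of TSC2. FNIP1 held a pair of matches, at 175 and 94 bases before its start. A match is a run of letters and not a measured binding site, and no binding was measured in these libraries.

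Libraries held 13729031 to 26758712 counts. BBOX1 stood at 1270, 1371 and 1893 CPM (counts scaled to library size with TMM, edgeR's normalization factor) in the BBOX1 xenografts, against 0.67, 0.33 and 0.83 CPM in the empty-vector xenografts. In culture it stood at 1078, 1095 and 1066 CPM in BBOX1 cells, against 0 in all 3 empty-vector libraries. BBOX1 levels therefore matched the vector label of all 12 libraries, and they do not check the label of cells or xenograft. All 7 markers of the 786-O line, among them PAX8, VIM and CD70, exceeded 1 CPM on average in every group. Replicate 1 of the BBOX1 xenografts stood apart: its chi-square per degree of freedom over genes was 41 and 40.9 against the other 2, which differed by 8.61 from each other. Member counts, and the calls that changed without it, are given both ways. Endothelial, leukocyte and erythroid markers summed to at most 2.20, 4.93 and 0.77 CPM in any library, with CDH5, LYZ and HBB at 0. The 7 fibroblast markers summed to 250 to 369 CPM in BBOX1 xenografts and 242 to 431 CPM in empty-vector xenografts, against 8.94 to 10.2 CPM in BBOX1 cells and 9.41 to 10.4 CPM in empty-vector cells. Of the 7, 3 exceeded 1 CPM on average in each group of xenografts, with COL1A1 and COL3A1 making up most of the sum. COL1A2, DCN, PDGFRA and PDGFRB stayed under 1 CPM in all xenografts, and COL1A2 was at 0 in cells. The part of such transcripts in the xenograft results was not tested.

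Compared per length (RPKM, CPM per kilobase of merged exon), the most abundant member in culture was EIF4EBP1, a repressor of cap-dependent translation that mTORC1 phosphorylates. It averaged 59.2 ± 1.31 RPKM in BBOX1 cells and 55.2 ± 1.49 RPKM in empty-vector cells (SD, n = 3 each). In xenografts the GTPase gene RRAGA led, at 64.7 ± 5.78 RPKM with BBOX1 and 80.95 ± 5.61 RPKM with the empty vector. In BBOX1 xenografts LAMTOR4, at 63.8 ± 15.8 RPKM, did not differ from RRAGA beyond its spread. Together with EIF4EBP1 and RRAGA, the genes RHEB, LAMTOR4, LAMTOR5 and LAMTOR2 made up the 6 highest members in every group. The kinase gene MTOR itself was moderate, at 7.07 RPKM in BBOX1 xenografts and 6.82 RPKM in empty-vector xenografts, against 11.9 RPKM in BBOX1 cells and 12.1 RPKM in empty-vector cells. At the low end, SESN3, RRAGD, CASTOR1, DEPDC5 and SLC38A9 stayed under 1 RPKM in all 4 groups, and DEPTOR stayed under 1 RPKM in both groups of cells.

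**Figure D1:**
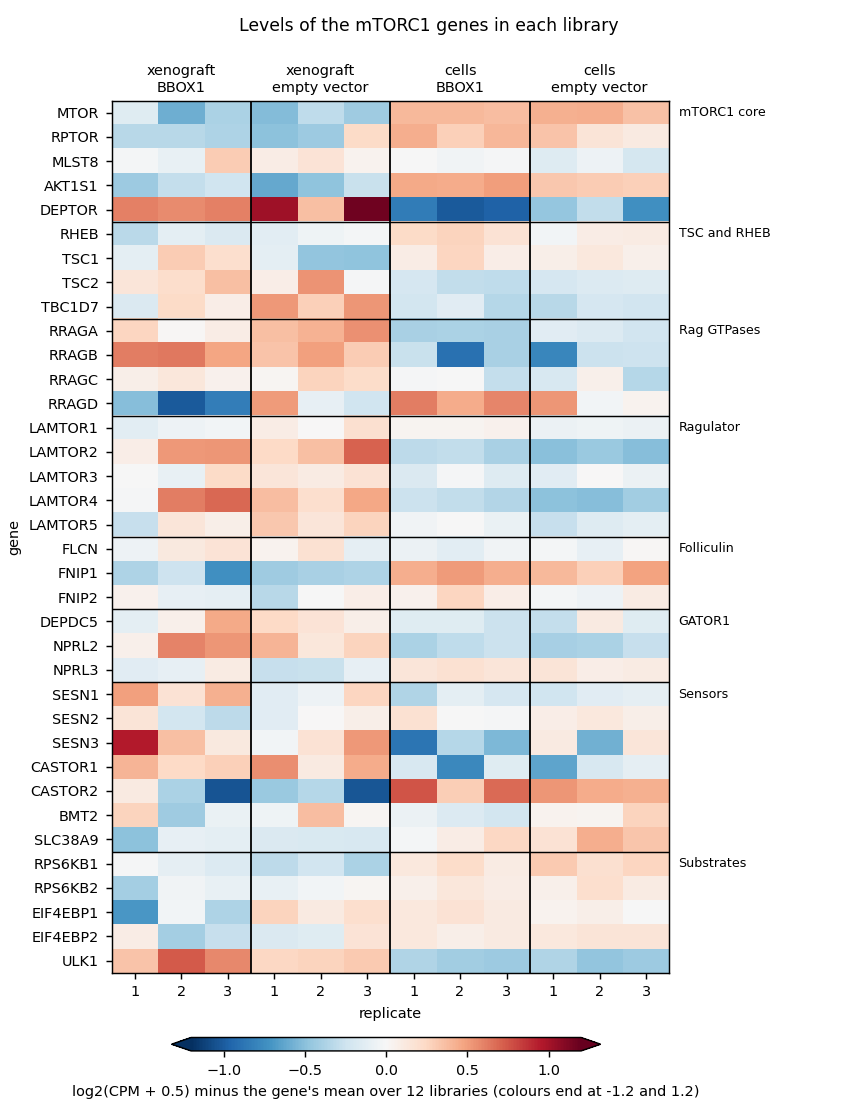
Colour gives log2(CPM + 0.5) of each gene in each library minus the gene's mean over the 12 libraries; columns are replicates 1 to 3 of each group, and rows are grouped by subcomplex. DEPTOR, RRAGB and ULK1 are above their means in all 6 xenografts, and MTOR, AKT1S1 and FNIP1 are below theirs in all 6.

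BBOX1 in cultured cells moved 7 of the 36 members past an adjusted p of 0.05, all by small amounts. RPTOR, AKT1S1, RHEB, LAMTOR4 and LAMTOR5 were higher in BBOX1 cells, and RRAGA and BMT2 were lower. Those 5 of 36 are 13.9%, beside 8.53% of all 14960 genes tested that were higher, and the 2 lower are 5.56%, beside 7.86%. The shares are near the background. The median log2 fold change was 0.02 over the members and 0.00 over all genes. None of the 7 changed by 1.5-fold.

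RHEB, the direct GTPase activator of mTORC1 (chr7:151466012-151520120, minus strand), stood at 175, 179 and 168 CPM in BBOX1 cells, against 145, 159 and 159 CPM in empty-vector cells. All 3 BBOX1 libraries were above all 3 empty-vector libraries. Its log2 fold change was 0.17 ± 0.03 (SE; edgeR adjusted p = 0.00054). RHEB shares 4.35% of its 100-base stretches with other genes, most with the pseudogene RHEBP1. In bulk RNA, a change in the make-up of the cells and a change in RNA per cell cannot be told apart.

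AKT1S1, which encodes PRAS40, an inhibitory subunit of the complex (chr19:49869033-49878459, minus strand), stood at 143, 142 and 148 CPM in BBOX1 cells, against 131, 129 and 127 CPM in empty-vector cells. The groups did not overlap, and the log2 fold change was 0.16 ± 0.03 (SE; edgeR adjusted p = 0.00093). RPTOR, the substrate-binding scaffold (chr17:80544819-80966371, plus strand), stood at 96.6, 86.6 and 94.0 CPM in BBOX1 cells, against 90.45, 79.3 and 76.8 CPM in empty-vector cells. Here replicate 2 with BBOX1 lay below replicate 1 with the empty vector. The log2 fold change was 0.17 ± 0.05 (SE; edgeR adjusted p = 0.0128), and 3 of the 6 single-library omissions ended the call: BBOX1 replicate 1 and empty-vector replicates 2 and 3 (highest adjusted p 0.144).

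RRAGA, a small GTPase that binds raptor when loaded with GTP (chr9:19049395-19050983, plus strand), fell in BBOX1 cells. It stood at 71.7, 72.55 and 71.75 CPM in BBOX1 cells, against 85.5, 83.8 and 80.25 CPM in empty-vector cells, with no overlap. The log2 fold change was -0.21 ± 0.04 (SE; edgeR adjusted p = 0.00056). RHEB, AKT1S1 and RRAGA passed the threshold with any single library of cells left out, where their highest adjusted p was 0.0106. BMT2, which encodes the S-adenosylmethionine sensor SAMTOR, stood at 16.0, 15.1 and 14.4 CPM in BBOX1 cells, against 17.4, 17.3 and 20.45 CPM in empty-vector cells. The groups did not overlap; its log2 fold change was -0.28 ± 0.09 (SE; edgeR adjusted p = 0.0292). Omitting any of BBOX1 replicates 2 and 3 and empty-vector replicate 3 ended that call (highest adjusted p 0.227).

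Of the 5 Ragulator subunits, LAMTOR4 and LAMTOR5 passed the threshold in the higher direction and the other 3 did not, beside 8.53% of all genes. LAMTOR4 stood at 74.7, 72.9 and 70.1 CPM in BBOX1 cells, against 63.5, 62.9 and 67.2 CPM in empty-vector cells. LAMTOR5 stood at 70.6, 72.5 and 69.1 CPM in BBOX1 cells, against 60.0, 65.6 and 67.1 CPM in empty-vector cells. Neither gene's groups overlapped. The log2 fold changes were 0.17 ± 0.04 for LAMTOR4 (SE; edgeR adjusted p = 0.0067) and 0.14 ± 0.05 for LAMTOR5 (SE; edgeR adjusted p = 0.0378). LAMTOR4 lost its call without BBOX1 replicate 1 (adjusted p 0.0526). LAMTOR5 lost its call when any of BBOX1 replicates 1 and 2 and empty-vector replicates 1 and 2 was omitted (highest adjusted p 0.20). LAMTOR2, at 0.16 ± 0.06, had an adjusted p of 0.0532.

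A correction of each library for gene length and GC content ended the calls of LAMTOR4, LAMTOR5 and BMT2 in cells. All 7 calls ended when the 12 libraries shared a single estimate of spread, a fit in which 1 of all 16927 genes was higher and 1 lower in BBOX1 cells. The biological coefficient of variation was 3.33% over the libraries of cells and 16.7% over the xenografts.

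No gene of the TSC complex, the folliculin complex, GATOR1 or the mTORC1 substrates passed the threshold in cells. Between BBOX1 and empty-vector cells, log2 fold changes of the tuberous sclerosis genes were 0.06 for TSC1 and -0.09 for TSC2. Those of the substrates ran from -0.11 for RPS6KB1, a ribosomal protein S6 kinase, to 0.10 for EIF4EBP1. The widest values in cells belonged to SESN3, DEPTOR and RRAGD, genes with few counts, none past the threshold. They met the filter on counts mainly through libraries of the group where each is higher, so their folds are not given.

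**Figure D2:**
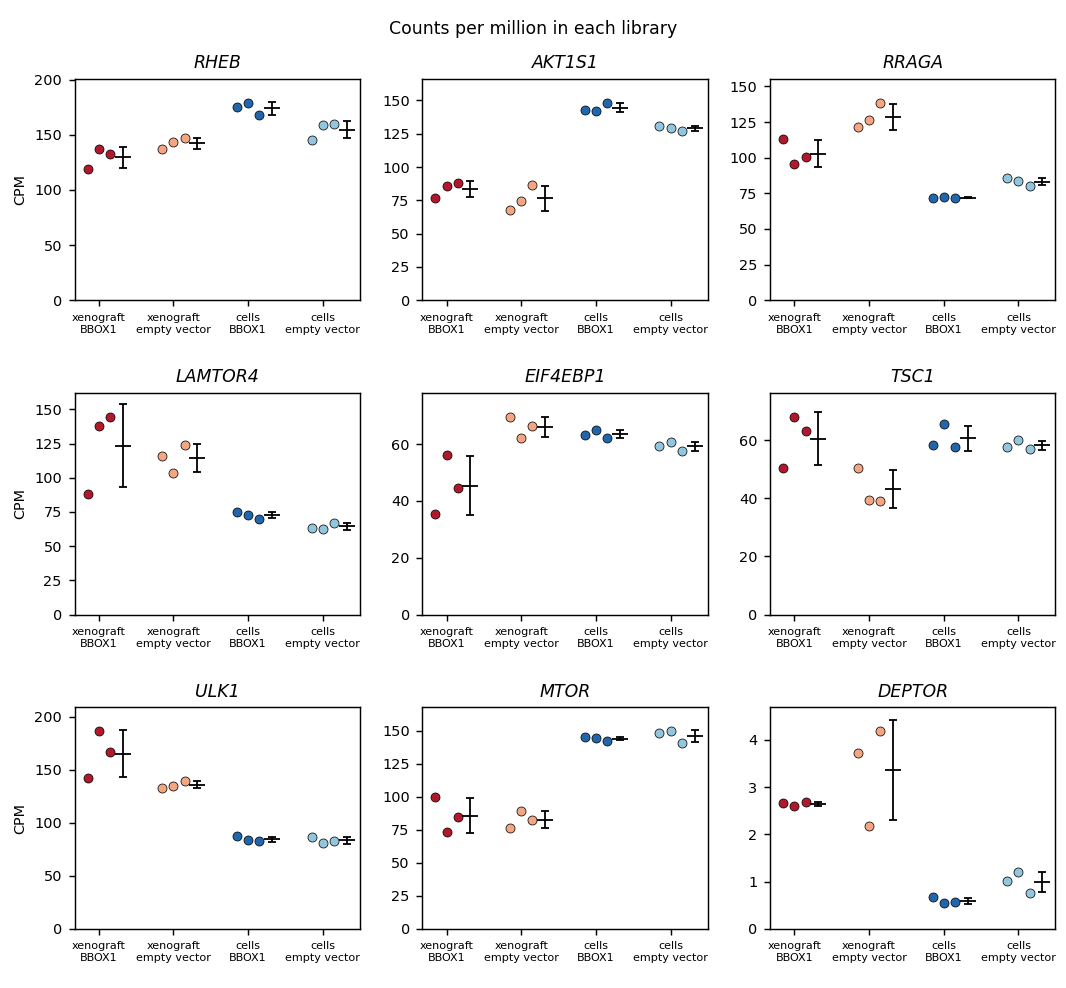
Each point is the CPM of a library, on an axis from 0, with the mean and SD of 3 libraries beside each group. RHEB and AKT1S1 are higher and RRAGA lower in BBOX1 cells than in empty-vector cells, and EIF4EBP1 is lowest in BBOX1 xenografts at 35.4 to 56.3 CPM.

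BBOX1 in xenografts moved none of the 35 members tested past the threshold in edgeR, where 1.91% of all 16126 genes were higher and 3.63% lower. RRAGD had too few counts for the fit. At an unadjusted p under 0.05 there were 5 members, 2 higher and 3 lower, which is 14.3% of 35, beside 25.2% of all genes. With DESeq2, TSC1 was higher (0.49, adjusted p 0.0439) and EIF4EBP1 lower (-0.54, adjusted p 0.0328) in BBOX1 xenografts. Of all 16123 genes, DESeq2 called 731 higher and 1002 lower, beside 308 and 586 in edgeR.

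EIF4EBP1 stood at 35.4, 56.3 and 44.6 CPM in BBOX1 xenografts, against 69.6, 62.3 and 66.2 CPM in empty-vector xenografts. All 3 BBOX1 libraries were below all 3 empty-vector libraries, with replicate 1 lowest. The log2 fold change was -0.53 ± 0.16 (SE; edgeR adjusted p = 0.0744). TSC1, which encodes hamartin, the stabilizing subunit of the TSC complex (chr9:132891348-132946874, minus strand), stood at 50.4, 68.0 and 63.1 CPM in BBOX1 xenografts, against 50.6, 39.4 and 39.2 CPM in empty-vector xenografts. Replicates 2 and 3 with BBOX1 were above every empty-vector library, and replicate 1 was not. The log2 fold change was 0.50 ± 0.15 (SE; edgeR adjusted p = 0.0784).

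Without BBOX1 replicate 1, 11.1% of all 16685 genes were higher and 14.7% lower in BBOX1 xenografts. Then 3 of the 35 members were higher: TSC1 (0.61, edgeR adjusted p = 0.00543), ULK1, the kinase that starts autophagy (0.39, edgeR adjusted p = 0.0134), and LAMTOR4 (0.31, edgeR adjusted p = 0.0492). A further 2 were lower: RRAGA (-0.39, edgeR adjusted p = 0.0148) and EIF4EBP1 (-0.38, edgeR adjusted p = 0.0362). These 5 of 35 are fewer, as a share, than over all genes. With all 3 libraries, ULK1 stood at 142, 186 and 167 CPM in BBOX1 xenografts, against 133, 135 and 139 CPM in empty-vector xenografts, which gave 0.29 ± 0.13 on the log2 scale (SE; edgeR adjusted p = 0.182). RRAGA stood at 113, 95.3 and 100.2 CPM in BBOX1 xenografts, against 121, 126 and 138.5 CPM in empty-vector xenografts, which gave -0.32 ± 0.12 on the log2 scale (SE; edgeR adjusted p = 0.129). For both genes the groups did not overlap. TBC1D7, the smallest TSC subunit, gave -0.40 ± 0.15 (SE; edgeR adjusted p = 0.132), with 16.0, 21.3 and 19.1 CPM in BBOX1 xenografts and 26.1, 22.2 and 26.4 CPM in empty-vector xenografts.

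RRAGD, the GTPase paralogue of RRAGC and a known TFEB target, was barely detected. It had 3, 0 and 1 counts in BBOX1 xenografts, against 14, 8 and 6 counts in empty-vector xenografts. In culture it had 28, 16 and 16 counts in BBOX1 cells, against 16, 8 and 12 counts in empty-vector cells. The BBOX1 xenografts were the lowest group, and no library of theirs reached the lowest of any other group. Scaled to total counts, the BBOX1 xenografts had 0.166 times the RRAGD of empty-vector xenografts (exact 95% interval 0.0422 to 0.473, counting error only). No ratio to BBOX1 cells is given. RRAGD entered the fit of BBOX1 xenografts against BBOX1 cells through the cells, where it is higher. Replicate 1, the library that stood apart, held 3 of the 4 counts. Without it the ratio to empty-vector xenografts was 0.0596 (exact 95% interval 0.00146 to 0.360, counting error only). With 3 libraries a group, empty-vector xenografts had 0.818 times the RRAGD of empty-vector cells (0.481 to 1.38).

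The BBOX1 effect in xenografts minus that in cells was tested directly over all 12 libraries. That fit shared a single estimate of spread between cells and xenografts. Its biological coefficient of variation was 11.9%, beside 16.7% over the xenografts alone and 3.33% over the cells alone. Of the 36 members, EIF4EBP1 alone passed the threshold, and in the lower direction, beside 3.26% of all 16927 genes that were lower and 1.93% that were higher. Its difference was -0.64 ± 0.17 on the log2 scale (SE; edgeR adjusted p = 0.0442): -0.53 in xenografts and 0.10 in cells. The call was lost in 10 of the 12 fits that left out a library (highest adjusted p 0.114) and with a replicate block; it held without BBOX1 xenograft replicate 1 (-0.51, edgeR adjusted p = 0.00458) and without BBOX1 xenograft replicate 2. Without BBOX1 xenograft replicate 1, RHEB, LAMTOR1, LAMTOR5 and RRAGD were also lower in this difference and TSC1 and ULK1 higher. Over all 17407 genes, 8.23% were then higher and 15.8% lower. RRAGD had few counts and entered that fit through groups where it is higher than in BBOX1 xenografts. Its value is therefore not given. With all 12 libraries RRAGD did not pass (edgeR adjusted p = 0.0532). All 5 Ragulator genes had a difference below 0 with all libraries, from -0.40 for LAMTOR5 to -0.04 for LAMTOR3, none past the threshold. Their median was -0.21, beside 0.00 over all genes. Without BBOX1 xenograft replicate 1 the difference of LAMTOR4 was 0.11, and those of the other Ragulator genes stayed below 0. Their shared direction was not tested.

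**Figure D3:**
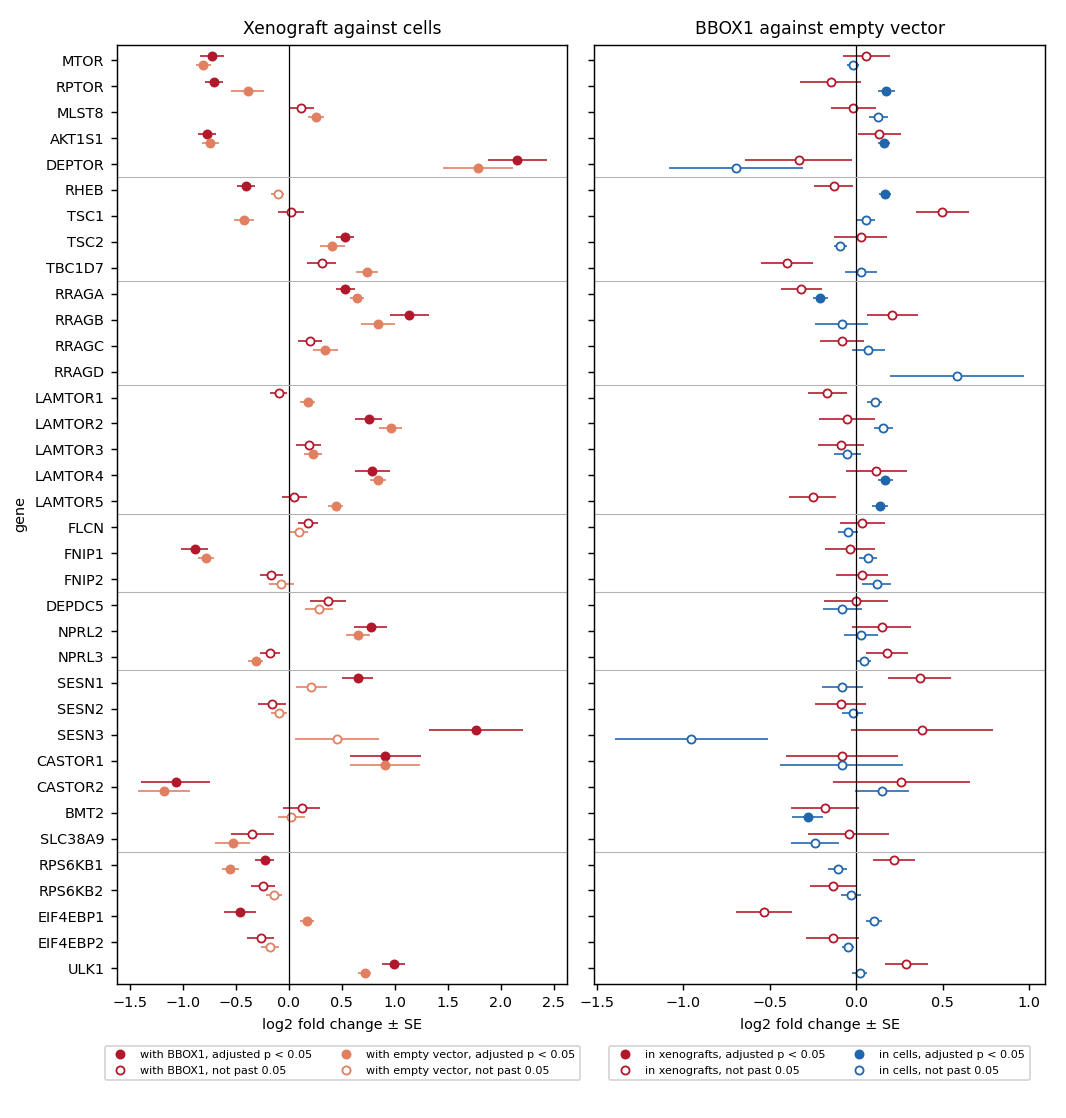
Log2 fold changes with their SE (edgeR) are given for xenografts against cells on the left and for BBOX1 against empty vector on the right; filled points passed an adjusted p of 0.05. RRAGD is not drawn for xenografts against cells. The xenograft effects drawn with the empty vector run from -1.18 for CASTOR2 to 1.785 for DEPTOR. The 7 filled BBOX1 effects in cells lie between -0.28 and 0.17. With BBOX1, DEPTOR, SESN3 and CASTOR1 are drawn although they entered that fit through the xenografts, where they are high. In cells, SESN3, DEPTOR and RRAGD are drawn although they entered that fit mainly through libraries of the group where each is higher.

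Xenografts differed from cultured cells far more widely, in the members as in all genes. With the empty vector, 16 of 35 members were higher in xenografts, beside 35.5% of all 15914 genes, and 9 lower, beside 33.1%. With BBOX1, 11 of 36 members were higher, beside 36.1% of all 15906 genes, and 9 lower, beside 32.1%. RRAGD is among those 9, but it entered that fit through the BBOX1 cells, where it is higher, so its fold is not given. Without RRAGD, 11 of 35 were higher and 8 lower. Those 11 include DEPTOR, SESN3 and CASTOR1, which entered that fit through the BBOX1 xenografts, where they are high. Without BBOX1 xenograft replicate 1 the counts with BBOX1 were 13 higher and 14 lower of 36, beside 38.4% and 37.6% of all 16384 genes. CASTOR1 was the only 1 of the 20 calls lost, and 8 were added: DEPDC5, FLCN and TBC1D7 higher, and EIF4EBP2, FNIP2, NPRL3, RPS6KB2 and SESN2 lower. Of the members, 9 were higher and 6 lower with either vector, EIF4EBP1 was higher with the empty vector and lower with BBOX1, and 7 passed the threshold with neither vector. The share of all genes called alike with both vectors is not given here. The summed fibroblast markers stood apart between xenografts and cells as given above, and the part of other cells was not tested.

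The core subunits moved apart. MTOR, the catalytic subunit (chr1:11106535-11262507, minus strand), stood at 99.5, 73.2 and 84.5 CPM in BBOX1 xenografts, against 145, 144 and 142 CPM in BBOX1 cells. With the empty vector it stood at 76.5, 89.3 and 82.1 CPM in xenografts, against 148, 149.6 and 141 CPM in cells. Every xenograft library lay below every library of cells, and the log2 fold changes were -0.73 ± 0.11 with BBOX1 and -0.81 ± 0.07 with the empty vector (SE; edgeR adjusted p = 0.000469 and 4.66e-07).

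AKT1S1 fell likewise, by 0.77 on the log2 scale with BBOX1 and by 0.74 with the empty vector (edgeR adjusted p = 6.92e-05 and 4.44e-06). RPTOR fell by 0.71 with BBOX1 (edgeR adjusted p = 9.88e-05), at 56.35, 56.2 and 54.8 CPM in BBOX1 xenografts against 96.6, 86.6 and 94.0 CPM in BBOX1 cells. With the empty vector it stood at 50.5, 52.4 and 83.2 CPM in xenografts, against 90.45, 79.3 and 76.8 CPM in cells. There xenograft replicate 3 lay among the cells, and the call (-0.39, edgeR adjusted p = 0.0384) was lost without xenograft replicate 1 or 2 or cell replicate 1 or 2 (highest adjusted p 0.162).

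DEPTOR, an inhibitory subunit, rose from a low level. It stood at 2.67, 2.60 and 2.68 CPM in BBOX1 xenografts against 0.67, 0.54 and 0.57 CPM in BBOX1 cells, and at 3.73, 2.18 and 4.19 CPM in empty-vector xenografts against 1.01, 1.199 and 0.76 CPM in empty-vector cells. No xenograft library overlapped the cells. With the empty vector the log2 fold change was 1.78 ± 0.33 (SE, edgeR adjusted p = 0.000403). With BBOX1, DEPTOR entered the fit through the xenografts, where it is high, so its fold is not given. MLST8, the stabilizing subunit, rose by 0.26 with the empty vector (edgeR adjusted p = 0.00766), a call lost without cell replicate 3 (adjusted p 0.0654) and under the length and GC correction (-0.07).

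Among upstream regulators, TSC2, whose product tuberin turns RHEB off, rose in xenografts by 0.53 ± 0.09 with BBOX1 and 0.41 ± 0.11 with the empty vector (SE; edgeR adjusted p = 0.000697 and 0.0066). It stood at 136, 142 and 157 CPM in BBOX1 xenografts against 106.5, 99.97 and 99.3 CPM in BBOX1 cells. With the empty vector it stood at 129.7, 178 and 121 CPM in xenografts against 107, 109.5 and 110.1 CPM in cells, again without overlap. TSC1 fell with the empty vector by 0.42 (edgeR adjusted p = 0.00185) and gave 0.02 with BBOX1 (edgeR adjusted p = 0.907); the length and GC correction ended the first call (-0.14, adjusted p 0.218). TBC1D7 rose with the empty vector by 0.73 (edgeR adjusted p = 3.55e-05) and gave 0.31 with BBOX1 (edgeR adjusted p = 0.0690), which passed without BBOX1 xenograft replicate 1 (0.36, edgeR adjusted p = 0.0119) and after the correction (0.74, edgeR adjusted p = 0.00288). RHEB fell by 0.41 with BBOX1 (edgeR adjusted p = 0.00295) and gave -0.10 with the empty vector (edgeR adjusted p = 0.156). The same contrast between vectors is the difference of BBOX1 effects given above, in which EIF4EBP1 alone of the members passed the threshold with all 12 libraries; a call with a single vector is therefore not shown to differ from the other vector for any other member.

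Of the Rag GTPases, RRAGA and RRAGB rose in xenografts with either vector. RRAGA, at 113, 95.3 and 100.2 CPM in BBOX1 xenografts against 71.7, 72.55 and 71.75 CPM in BBOX1 cells, gave 0.53 ± 0.09 (SE; edgeR adjusted p = 0.000748), a call that the length and GC correction ended (0.22, adjusted p 0.0897). In empty-vector xenografts it gave 0.64 ± 0.07 (SE; edgeR adjusted p = 3.12e-06). RRAGB, its less abundant paralogue (chrX:55717739-55758774, plus strand), stood at 15.3, 15.5 and 13.8 CPM in BBOX1 xenografts, against 8.05, 5.04 and 7.36 CPM in BBOX1 cells. With the empty vector it stood at 12.5, 13.95 and 12.2 CPM in xenografts, against 5.48, 8.09 and 8.155 CPM in cells. No library overlapped, and the log2 fold changes were 1.14 ± 0.19 with BBOX1 and 0.84 ± 0.16 with the empty vector (SE; edgeR adjusted p = 0.000579 and 0.000457). RRAGC gave 0.35 with the empty vector (edgeR adjusted p = 0.0199; lost without cell replicate 1 or 3 or xenograft replicate 2) and 0.20 with BBOX1 (edgeR adjusted p = 0.149). It shares 21.4% of its 100-base stretches with an overlapping transcript, AL139260.2, so its counts are uncertain.

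All 5 Ragulator genes passed the threshold in the higher direction with the empty vector, beside 35.5% of all genes. With BBOX1, LAMTOR2 and LAMTOR4 did so, beside 36.1% of all genes. LAMTOR4 stood at 88.5, 138 and 144.5 CPM in BBOX1 xenografts against 74.7, 72.9 and 70.1 CPM in BBOX1 cells, and at 116, 103 and 124 CPM in empty-vector xenografts against 63.5, 62.9 and 67.2 CPM in empty-vector cells. Replicate 1 of the BBOX1 xenografts was the lowest of the 6 xenografts. The log2 fold changes were 0.79 ± 0.17 with BBOX1 and 0.84 ± 0.08 with the empty vector (SE; edgeR adjusted p = 0.00265 and 7.48e-07). LAMTOR2 gave 0.75 ± 0.13 with BBOX1 and 0.96 ± 0.11 with the empty vector (SE; edgeR adjusted p = 0.000765 and 4.52e-06).

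Under the length and GC correction LAMTOR4 gave 0.29 with BBOX1 and 0.34 with the empty vector, and LAMTOR2 gave 0.39 and 0.56, all still past the threshold. LAMTOR5 rose by 0.44 with the empty vector (edgeR adjusted p = 0.000145) and gave 0.05 with BBOX1 (edgeR adjusted p = 0.706). LAMTOR1 (0.18, edgeR adjusted p = 0.0364) and LAMTOR3 (0.23, edgeR adjusted p = 0.0317) with the empty vector each lost their call without any one replicate of cells or without xenograft replicate 3. LAMTOR1 turned to -0.17 under the correction. The LAMTOR1 and LAMTOR3 calls were also lost without a filter, with DESeq2, with a replicate block and with all 12 libraries in 1 fit.

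FNIP1, a folliculin partner (chr5:131641714-131797063, minus strand), fell in xenografts with either vector. It stood at 30.6, 33.2 and 23.7 CPM in BBOX1 xenografts against 53.8, 56.6 and 53.7 CPM in BBOX1 cells, and at 29.4, 30.1 and 30.5 CPM in empty-vector xenografts against 52.0, 48.4 and 55.7 CPM in empty-vector cells. No library overlapped, and the log2 fold changes were -0.89 ± 0.13 with BBOX1 and -0.78 ± 0.08 with the empty vector (SE; edgeR adjusted p = 0.00028 and 1.56e-06), or -0.50 and -0.33 after the correction. FLCN gave 0.18 with BBOX1 and 0.10 with the empty vector, neither past the threshold; with BBOX1 it passed after the correction (0.25, edgeR adjusted p = 0.0430) and without xenograft replicate 1 (0.18, edgeR adjusted p = 0.0351). FNIP2 gave -0.17 with BBOX1 and -0.07 with the empty vector without the correction, but 0.27 and 0.39 after it, both then past the threshold. Without BBOX1 xenograft replicate 1 it was -0.28 with BBOX1 (edgeR adjusted p = 0.0310), in the other direction.

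In GATOR1, which turns RRAGA and RRAGB off, NPRL2 rose with either vector, by 0.77 ± 0.16 with BBOX1 and 0.65 ± 0.11 with the empty vector (SE; edgeR adjusted p = 0.00209 and 0.000195). It stood at 15.8, 23.15 and 22.1 CPM in BBOX1 xenografts, against 11.6, 12.2 and 12.6 CPM in BBOX1 cells. In empty-vector libraries NPRL2 stood at 20.2, 16.8 and 18.4 CPM in xenografts, against 11.4, 11.6 and 12.4 CPM in cells. The groups did not overlap. NPRL3 fell by 0.31 with the empty vector (edgeR adjusted p = 0.00165) and gave -0.18 with BBOX1 (edgeR adjusted p = 0.111), which passed without xenograft replicate 1 (-0.19, edgeR adjusted p = 0.0218) and after the correction (-0.32, edgeR adjusted p = 0.00606). DEPDC5 gave 0.37 with BBOX1 and 0.28 with the empty vector, neither past the threshold. After the correction it passed with both, at 0.50 and 0.44 (edgeR adjusted p = 0.0361 and 0.0129), and with BBOX1 also without xenograft replicate 1 (0.43, edgeR adjusted p = 0.0181). Exons of NPRL2 overlap CYB561D2 and those of NPRL3 overlap MPG on the other strand, and the counts may not tell these apart.

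Of the 7 sensors, 3 were higher and 1 lower with BBOX1, beside 36.1% and 32.1% of all genes. With the empty vector 1 was higher and 2 lower, beside 35.5% and 33.1%. The 3 include SESN3 and CASTOR1, which entered the fit with BBOX1 through the xenografts, where they are high. CASTOR2, a partner of the arginine sensor CASTOR1, stood at 3.84, 2.60 and 1.47 CPM in BBOX1 xenografts against 6.30, 4.44 and 5.97 CPM in BBOX1 cells. It stood at 2.46, 2.67 and 1.47 CPM in empty-vector xenografts against 5.30, 4.975 and 4.90 CPM in empty-vector cells. No xenograft reached the cells of its vector, and the log2 fold changes were -1.07 ± 0.33 and -1.18 ± 0.25 (SE; edgeR adjusted p = 0.0164 and 0.000894); the BBOX1 call was lost without cell replicate 1 (adjusted p 0.0568).

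CASTOR1 gave 0.91 with the empty vector (edgeR adjusted p = 0.0283), a call lost without cell replicate 1 or 2 or xenograft replicate 1 or 3. With BBOX1 it entered the fit through the xenografts, where it is high, so its fold is not given. The call with BBOX1 was lost in each of the 6 fits without a library, and the correction ended both calls. CASTOR1 shares 36% and CASTOR2 14.4% of their 100-base stretches with other genes, so both are uncertain. Of the leucine sensor family, SESN1 gave 0.65 with BBOX1 (edgeR adjusted p = 0.00418). SESN3 entered the fit with BBOX1 through the xenografts, where it is high, so its fold is not given. Neither passed with the empty vector (0.21 for SESN1 and 0.46 for SESN3). SESN3 was near the limit of detection, at 2.33, 1.37 and 1.085 CPM in BBOX1 xenografts against 0.30, 0.65 and 0.50 CPM in BBOX1 cells. SESN2, the most abundant sestrin here, gave -0.16 with BBOX1 and -0.10 with the empty vector, neither past the threshold. After the correction it was -0.44 with either vector (edgeR adjusted p = 0.0327 with BBOX1 and 0.000243 with the empty vector), and without BBOX1 xenograft replicate 1 it was -0.37 (edgeR adjusted p = 0.00184). BMT2 passed with neither vector, with or without the correction or that library. SLC38A9, a lysosomal arginine transporter and sensor, fell by 0.53 with the empty vector (edgeR adjusted p = 0.0129; 0.0551 without cell replicate 2), a call that the correction ended (-0.10).

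Among the substrates, ULK1 (chr12:131894651-131923167, plus strand) rose in xenografts. It stood at 142, 186 and 167 CPM in BBOX1 xenografts against 87.0, 83.5 and 82.3 CPM in BBOX1 cells, and at 133, 135 and 139 CPM in empty-vector xenografts against 86.9, 80.4 and 82.4 CPM in empty-vector cells. Every xenograft was above every library of cells. The log2 fold changes were 0.99 ± 0.11 with BBOX1 and 0.72 ± 0.06 with the empty vector (SE; edgeR adjusted p = 6.43e-05 and 4.65e-07), or 0.82 and 0.59 after the correction.

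RPS6KB1 fell by 0.23 with BBOX1 (edgeR adjusted p = 0.0488; lost without any library of BBOX1 cells or BBOX1 xenograft replicate 2 or 3) and by 0.55 with the empty vector (edgeR adjusted p = 3.83e-05). After the correction these were 0.13 and -0.12, neither past the threshold. EIF4EBP1 gave -0.46 with BBOX1 (edgeR adjusted p = 0.0225; lost without cell replicate 2 or xenograft replicate 3, highest adjusted p 0.0668) and 0.17 with the empty vector (edgeR adjusted p = 0.0430; lost without any one cell replicate or xenograft replicate 1 or 3, highest adjusted p 0.201). After the correction both were below 0, at -1.18 and -0.455. RPS6KB2 gave -0.25 with BBOX1 and -0.14 with the empty vector, neither past the threshold. It passed after the correction, at -0.33 and -0.26 (edgeR adjusted p = 0.0161 and 0.00758), and without BBOX1 xenograft replicate 1 (-0.20, edgeR adjusted p = 0.0274). EIF4EBP2 gave -0.27 with BBOX1 and -0.18 with the empty vector, neither past the threshold, and -0.48 without that replicate (edgeR adjusted p = 1.29e-05).

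**Figure D4:**
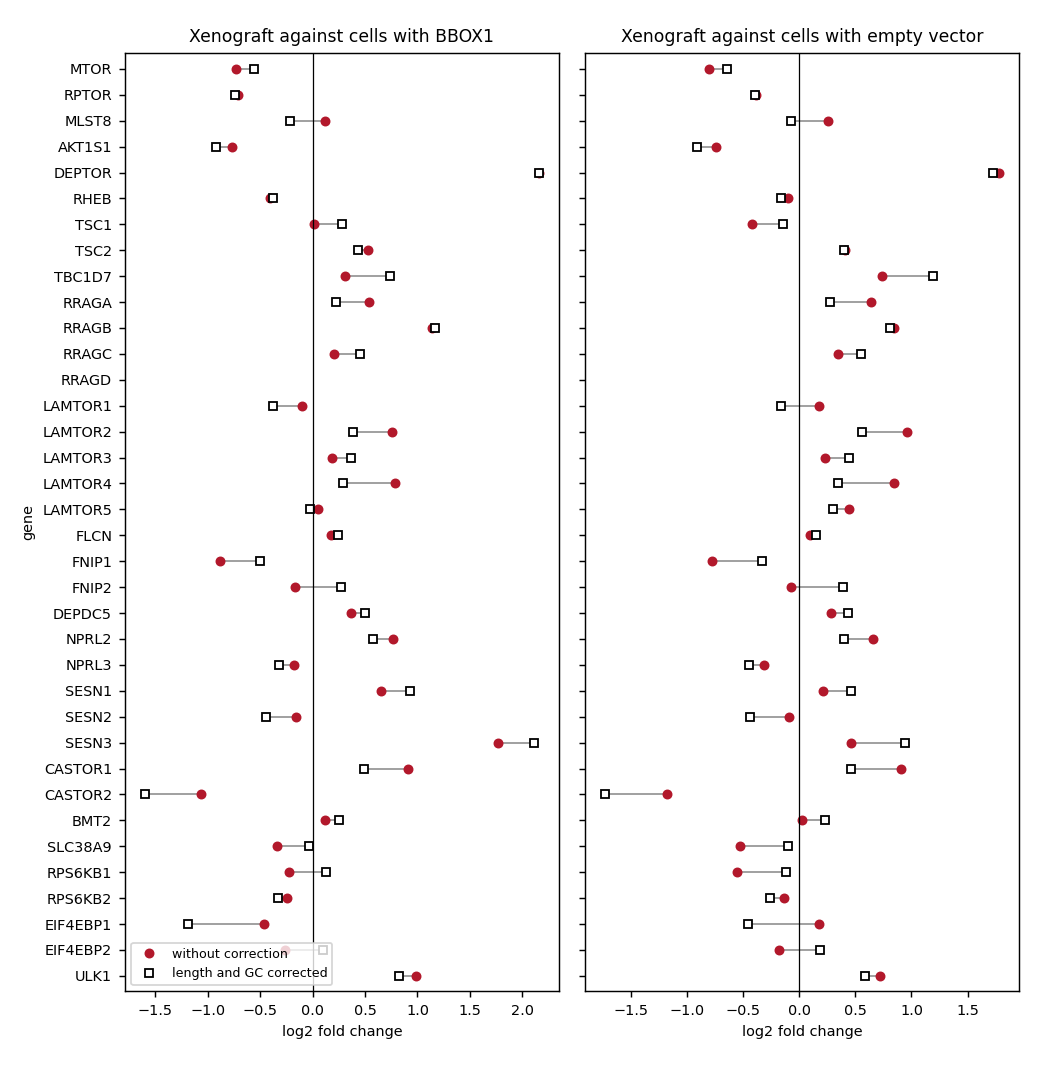
Log2 fold changes of each member except RRAGD in xenografts against cells are given as fitted (red circles) and after the correction for gene length and GC content (open squares), with BBOX1 on the left and the empty vector on the right. EIF4EBP1 has the shortest merged exons of the members (1073 bases) and the highest GC content (65.5%). It moved to -1.18 with BBOX1 and -0.455 with the empty vector, while MTOR, AKT1S1, DEPTOR, RRAGB and ULK1 kept their direction with either vector.

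The length and GC correction kept 17 of the 20 calls with BBOX1 and 18 of the 25 with the empty vector, in the same direction. It added 10 calls with BBOX1 (DEPDC5, FLCN, FNIP2, LAMTOR1, LAMTOR3, NPRL3, RPS6KB2, RRAGC, SESN2 and TBC1D7) and 6 with the empty vector (DEPDC5, FNIP2, RHEB, RPS6KB2, SESN1 and SESN2). Calls that held under every alternative tried, including each library left out and excepting only the added demand of a 1.5-fold change, numbered, leaving out RRAGD, 14 with BBOX1 (9 higher, 5 lower) and 15 with the empty vector (10 higher, 5 lower). Those 9 include DEPTOR and SESN3, which entered the fit with BBOX1 through the xenografts, where they are high. The share of all genes whose calls held likewise is not given here. MTOR, AKT1S1, DEPTOR, TSC2, RRAGB, LAMTOR2, LAMTOR4, FNIP1, NPRL2 and ULK1 were in both sets.

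Within families of related genes, shares of the level per length are given without a test. CASTOR1 gave 27.6 ± 8.98% of the summed RPKM of CASTOR1 and CASTOR2 in BBOX1 xenografts and 31.5 ± 9.45% in empty-vector xenografts, against 7.86 ± 1.45% in BBOX1 cells and 9.23 ± 2.61% in empty-vector cells (SD, n = 3 each). CASTOR1 had few counts, and it shares 36% and CASTOR2 14.4% of their 100-base stretches with other genes, so these shares are uncertain. FNIP2 gave 32.3 ± 3.64% of the FNIP1 and FNIP2 sum in BBOX1 xenografts and 30.9 ± 2.87% in empty-vector xenografts, against 22.2 ± 0.88% in BBOX1 cells and 21.6 ± 0.39% in empty-vector cells. TSC2 gave 68.4 ± 2.82% of the TSC1 and TSC2 sum in BBOX1 xenografts and 74.5 ± 5.34% in empty-vector xenografts, against 60.1 ± 2.21% in BBOX1 cells and 62.6 ± 0.66% in empty-vector cells.

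RRAGA kept between 92.2% and 95.2% of the RRAGA and RRAGB sum in every group, and SESN2 between 79.7% and 87.6% of the sestrin sum. These shares rest on merged exon lengths rather than on measured isoforms.

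**Figure D5:**
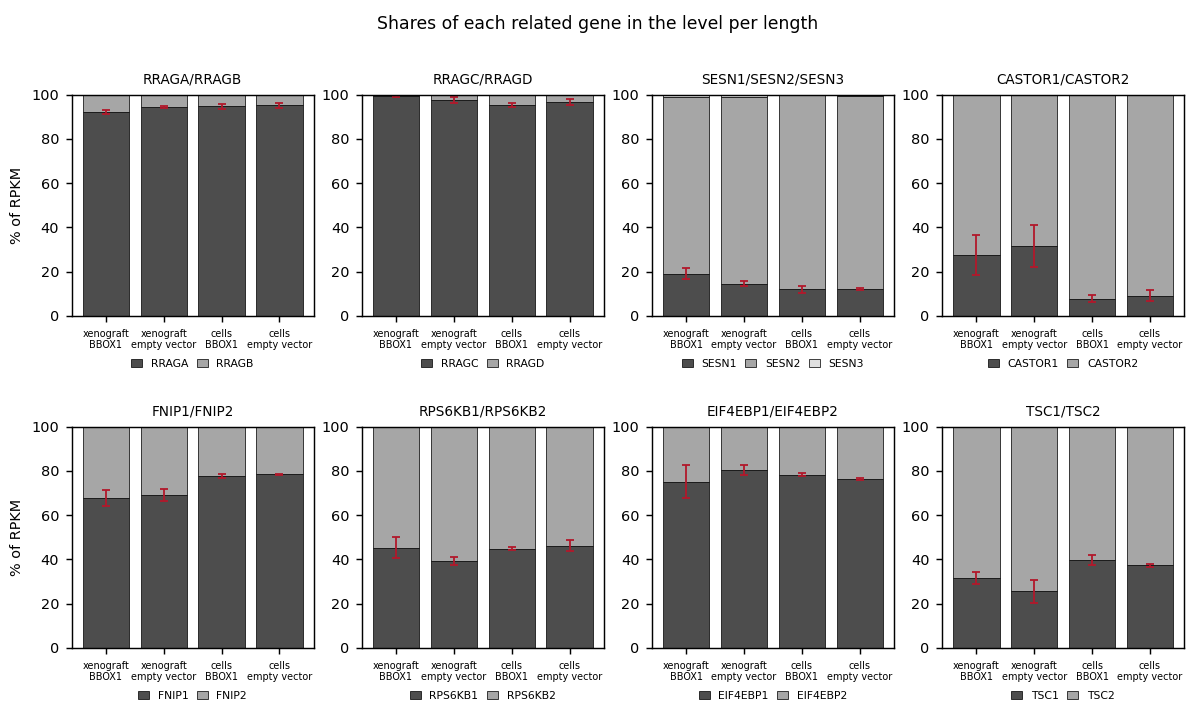
Bars give the mean share of each related gene in the family's summed RPKM, as % from 0 to 100, in the 4 groups; red error bars give the SD of the share drawn at the bottom over 3 libraries. CASTOR1 takes 27.6% and 31.5% in xenografts with BBOX1 and with the empty vector, and under 10% in cells. Both CASTOR genes share stretches with other genes, so these shares are uncertain.

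Of the other pathway genes, 52 were listed: GATOR2, KICSTOR, mTORC2, growth factor and energy inputs, downstream targets, and transcription factors that act on members. In cells with BBOX1, 6 of the 49 tested were higher and 4 lower than with the empty vector, or 12.2% and 8.16%, beside 8.53% and 7.86% of all genes. EEF2, the translation elongation factor, stood at 2728, 2682 and 2671 CPM in BBOX1 cells against 2385, 2407 and 2324 CPM in empty-vector cells. The groups did not overlap, and the log2 fold change was 0.18 (edgeR adjusted p = 3.94e-08). EIF4G1, the scaffold of the cap-binding complex, rose by 0.13 (edgeR adjusted p = 2.18e-05). Neither of these calls was lost when a library was left out, and both were lost in the fit of 12 libraries. ATF4 gave 0.08 (edgeR adjusted p = 0.0332), a call lost in each fit that left out a library except that without empty-vector replicate 3 (highest adjusted p 0.118). TFEB, TFE3, MITF, DDIT3, FOXO1, FOXO3 and DDIT4 did not pass the threshold in cells.

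Among the transcription factors of the members, TFEB rose in xenografts with either vector. It stood at 33.0, 33.4 and 36.1 CPM in BBOX1 xenografts against 15.5, 15.6 and 16.2 CPM in BBOX1 cells, and at 39.95, 43.5 and 41.6 CPM in empty-vector xenografts against 15.2, 19.2 and 15.1 CPM in empty-vector cells. Every xenograft was above every library of cells, with log2 fold changes of 1.14 and 1.35 (edgeR adjusted p = 1.58e-05 and 1.4e-07). MITF fell by 0.91 with BBOX1 and by 1.06 with the empty vector (edgeR adjusted p = 0.00118 and 9.78e-08). TFE3 gave 0.03 and 0.09, neither past the threshold. After the length and GC correction it gave -0.20 and -0.18, both then past the threshold in the lower direction.

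ATF4 gave -0.32 with BBOX1 (edgeR adjusted p = 0.0276; lost without any one cell replicate or xenograft replicate 3, highest 0.0639) and -0.09 with the empty vector. DDIT3 rose by 0.90 with the empty vector (edgeR adjusted p = 0.000272) and gave 0.07 with BBOX1. FOXO3 fell by 0.29 with the empty vector (edgeR adjusted p = 0.00204, lost under the correction) and gave -0.32 with BBOX1 (edgeR adjusted p = 0.0560), and FOXO1 passed with neither. DDIT4, which encodes REDD1, an inducible restrainer of mTORC1, rose by 0.80 with the empty vector (edgeR adjusted p = 1.17e-05) and gave 0.32 with BBOX1 (edgeR adjusted p = 0.0726).

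Of 12 genes downstream of mTORC1, 1 was higher and 8 lower in BBOX1 xenografts than in BBOX1 cells, and 2 were higher and 9 lower in empty-vector xenografts than in empty-vector cells. The background over all genes was 36.1% higher and 32.1% lower for BBOX1, against 35.5% higher and 33.1% lower for the empty vector. The medians of the 12 were -0.78 and -0.54 on the log2 scale, beside 0.07 and 0.04 over all genes tested. LPIN1, a phosphatidate phosphatase and regulator of lipid genes, fell by 1.45 with BBOX1 and 1.70 with the empty vector (edgeR adjusted p = 6.16e-06 and 6.2e-09). IGF1R, a receptor upstream of the pathway, fell by 1.74 and 1.72 (edgeR adjusted p = 8.76e-06 and 8.76e-10). EIF4G1 fell by 1.285 with BBOX1 (edgeR adjusted p = 2.82e-05) and by 1.01 with the empty vector (edgeR adjusted p = 7.14e-08).

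In xenografts, BBOX1 moved 2 of 50 tested pathway genes, both lower, which is 4.0%, beside 3.63% of all genes. PRR5L, an mTORC2 subunit, stood at 14.9, 15.5 and 14.7 CPM in BBOX1 xenografts against 27.9, 30.8 and 26.4 CPM in empty-vector xenografts. The groups did not overlap, the log2 fold change was -0.91 ± 0.13 (SE; edgeR adjusted p = 0.00359), and the call held under every alternative tried. IRS2, an insulin receptor adaptor, fell by 0.60 (edgeR adjusted p = 0.0470), a call lost in 5 of the 6 fits that left out a library, all but that without BBOX1 replicate 1 (highest adjusted p 0.221). TFEB, TFE3, MITF, ATF4, DDIT3, FOXO1 and FOXO3 did not pass the threshold; TFEB gave -0.28 (edgeR adjusted p = 0.159) and DDIT3 -0.78 (edgeR adjusted p = 0.0912). DDIT4 gave -0.41 (edgeR adjusted p = 0.167), at 265, 402 and 322 CPM in BBOX1 xenografts against 361, 491 and 472 CPM in empty-vector xenografts, where replicate 2 with BBOX1 lay among the empty-vector libraries.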

How the data were processed

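Gene counts came from a table of 58735 genes and 12 libraries that the authors deposited. Polyadenylated RNA was sequenced as paired-end reads of 100 bases with the NEBNext Ultra kit, per the labels' protocols. Per the submitters' processing notes, hg38 was the build, and the tools were DESeq2, fastp, featureCounts and STAR. Not given in the sources used here were their versions and roles, the annotation, the strand setting and whether mouse reads were taken out. All 58735 identifiers and names were identical to GENCODE release 29, which gave exon lengths, positions and overlaps. Reads from overlapping or antisense genes may not be told apart.

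Counts were used as deposited. Tests were edgeR quasi-likelihood tests (edgeR 4.0.16, R 4.3.3) with TMM factors, filterByExpr at a minimum count of 10, and Benjamini-Hochberg adjustment over all genes tested, with a threshold of 0.05. Each comparison was fitted on its own groups, and the difference of BBOX1 effects on all 12 libraries. SE is the absolute log2 fold change over the root of F, an approximation. CPM used TMM over 12 libraries, and RPKM divided it by merged exon length. The fits were tested on simulated data. Alternatives were median-ratio size factors, no filter, 1 CPM in at least 3 libraries, DESeq2 1.42.0, a replicate block, all 12 libraries in 1 fit, a demand of 1.5-fold, offsets that remove each library's trend over length and GC content (splines of 4 degrees of freedom), and each library left out.

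The members and the other gene lists were chosen with earlier results of these data known. All 36 members are named; of the other pathway genes, up to 3 of smallest p past the threshold per comparison, the transcription factors, and DDIT4; some of these genes are not reported here. Total counts ran from 13729031 to 26758712; intervals cover counting error only.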

Additional observations from a re-analysis of the deposited data

Results flagged for a closer look

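The effect of BBOX1 differed between xenografts and cells in a direct test for 5 of the 86 member and pathway genes tested. Of the 86, 1.16% were higher and 4.65% lower, beside 1.93% and 3.26% of all genes, so the shares are near the background. The difference, xenograft effect minus cell effect on the log2 scale, was -0.64 for EIF4EBP1 (edgeR adjusted p = 0.0442), -0.71 for PRR5L (edgeR adjusted p = 0.0196), -0.72 for IRS2 (edgeR adjusted p = 0.0204), 0.53 for RICTOR, the defining subunit of mTORC2 (edgeR adjusted p = 0.0398), and -0.42 for SEH1L, a GATOR2 subunit (edgeR adjusted p = 0.0490). SEH1L lay outside the rule for named genes and was chosen after its values were seen. The fit of these differences shared a single estimate of spread between cells and xenografts, as given above.

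RICTOR stood at 50.6, 61.7 and 48.5 CPM in BBOX1 xenografts against 42.15, 44.85 and 38.45 CPM in empty-vector xenografts, and at 57.4, 56.0 and 60.3 CPM in BBOX1 cells against 69.3, 64.3 and 62.3 CPM in empty-vector cells. The groups did not overlap in either setting, with BBOX1 on the high side in xenografts and on the low side in cells. IRS2 stood at 242, 248 and 179 CPM in BBOX1 xenografts against 306, 385 and 327 CPM in empty-vector xenografts, and at 436, 438 and 443 CPM in BBOX1 cells against 420, 401.5 and 397 CPM in empty-vector cells. SEH1L stood at 31.5, 29.3 and 26.4 CPM in BBOX1 xenografts against 41.15, 41.1 and 37.45 CPM in empty-vector xenografts, and at 59.7, 62.5 and 59.55 CPM in BBOX1 cells against 61.9, 62.9 and 61.45 CPM in empty-vector cells. Each of these 5 calls was lost in 6 to 10 of the 12 fits that left out a library, with a highest adjusted p between 0.0649 and 0.129. The calls held without BBOX1 xenograft replicate 1 for all 5 genes, without BBOX1 xenograft replicate 2 for EIF4EBP1, PRR5L and IRS2, and without BBOX1 xenograft replicate 3 for RICTOR, PRR5L and IRS2. They held without empty-vector xenograft replicate 1 for PRR5L and IRS2, without replicate 3 for PRR5L, IRS2 and SEH1L, and without replicate 3 of the BBOX1 cells for PRR5L. With a replicate block the calls of EIF4EBP1, PRR5L, RICTOR and SEH1L were lost and that of IRS2 was not. The length and GC correction ended the call of RICTOR, and a fit without a filter on low counts ended that of SEH1L.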

How the results depend on the processing

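Of 3628 values of named genes under alternatives, 3311 kept their side of the threshold (130 of them uncalled values that changed sign), 227 lost and 82 gained a call, and 8 reversed, all under the length and GC correction. Those 8 were, with the empty vector, MLST8 (-0.071), LAMTOR1 (-0.17), FNIP2 (0.39), EIF4EBP1 (-0.455) and TFE3 (-0.18), and with BBOX1, FNIP2 (0.27), RPS6KB1 (0.13) and TFE3 (-0.20); the cause was not tested. Counts of members called higher and lower (all members, xenografts against cells) were 16 and 9 with the empty vector, or 9 and 4 with a demand of 1.5-fold. Over all genes with the empty vector, 5650 and 5273 became 4169 and 3254 with that demand. With BBOX1 the member counts stayed within 1.5 times of 11 and 9 under each of these settings, apart from libraries left out. For BBOX1 in cells, 5 and 2 became 4 and 1 with DESeq2, 3 and 1 with the correction, and 0 and 0 with 1.5-fold or with all 12 libraries in 1 fit. Over all genes, 1276 and 1176 became 987 and 860 with DESeq2 and 1220 and 910 with the correction. They were 34 and 149 with 1.5-fold and 1 and 1 with all 12 libraries in 1 fit. For BBOX1 in xenografts, 0 and 0 became 1 and 1 without a filter or with DESeq2, 2 and 4 with all 12 libraries in 1 fit, and 0 and 1 with the correction. Over all genes, 308 and 586 became 797 and 1408 without a filter and 731 and 1002 with DESeq2. They were 1563 and 2105 with all 12 libraries in 1 fit and 459 and 756 with the correction. For the difference of effects, 0 and 1 became 0 and 2 without a filter or with the correction, and 0 and 4 with DESeq2. The member that the correction added was RRAGD. Over all genes, 326 and 552 became 570 and 1092 without a filter and 367 and 697 with the correction. They were 605 and 1088 with DESeq2 and 77 and 199 with a replicate block. Leaving out a library gave 2 to 5 members higher and 1 to 2 lower for BBOX1 in cells, 0 to 3 and 0 to 2 in xenografts, 0 to 2 and 0 to 5 for the difference, 11 to 15 and 7 to 10 for xenografts against cells with the empty vector, and 10 to 13 and 7 to 14 with BBOX1. Over all genes this gave 956 to 1180 and 873 to 1011 in cells, and 22 to 1854 and 153 to 2447 in xenografts. For the difference it gave 63 to 1432 and 206 to 2750. Xenografts against cells gave 5277 to 5725 and 4897 to 5483 with the empty vector, and 5206 to 6289 and 4588 to 6158 with BBOX1. Fitting without a filter shifted all genes by -0.07 with the empty vector and -0.14 with BBOX1. The replicate numbers did not pair libraries (correlations -0.083 to 0.037 for the same number); with a replicate block the difference of effects had 0 members higher and 0 lower, with EIF4EBP1 at -0.66 (adjusted p 0.106), and no other member count moved by over 1.5 times. The correction together with the replicate block was not run for that reason. Depth limits RRAGD, SESN3, DEPTOR and CASTOR1, each near 1 CPM in cells or below.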

Other observations

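Of the 19 growth factor and energy inputs, 2 of 16 tested were higher and 8 lower in BBOX1 xenografts than in BBOX1 cells, and 3 of 17 were higher and 9 lower in empty-vector xenografts than in empty-vector cells. Among all genes tested, BBOX1 libraries had 36.1% higher and 32.1% lower, and empty-vector libraries had 35.5% higher and 33.1% lower. The medians of the growth factor and energy inputs were -0.32 and -0.28 on the log2 scale, beside 0.07 and 0.04 over all genes tested. GATOR2, which restrains GATOR1, had 1 of 5 genes higher and 2 lower with BBOX1, and 0 higher and 2 lower with the empty vector. KICSTOR, which anchors GATOR1 to the lysosome, had 2 of 4 higher and 0 lower with BBOX1, and 1 higher and 1 lower with the empty vector. mTORC2 had 1 of 4 higher and 1 lower with BBOX1, and 1 higher and 2 lower with the empty vector.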
